A study of Mus musculus with 6 samples.

Results

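The genes of the hypothalamic growth hormone axis were examined in RNA-seq data from the arcuate nucleus (ARC) of male mice. The 9 genes were chosen by name from the 22322 genes of the deposited table, by a rule that uses no measured value but was set with earlier results of these data known. They were the hormone genes Ghrh and Sst, the receptor genes Ghr, Sstr1 and Sstr2, the growth factor genes Igf1 and Igf2, and the binding protein genes Igfbp2 and Igfbp5. The 6 samples were 3 from male mice on normal-chow diet (NCD, 16.5% fat) and 3 from male mice on high-fat diet (HFD, 60% fat). Feeding began at 4 weeks of age and lasted 16 weeks in both groups. The wild-type mice of the study were of the C57BL/6J strain, and no transgene, virus or drug is given for these samples. The study also used Kiss1-Cre mice crossed with R26R-EYFP reporter mice. Which of these mice were sequenced is not stated. The ARC was cut from frozen brain sections by laser capture microdissection (LCM), in the area where a reporter line had placed Kiss1 neurons. The comparison of the diets asked which genes of the ARC differ in diet-induced obesity. Whether a sample held 1 mouse or several is not stated, so the p-values measure only the spread between these samples, which may be technical. The tissue was bulk, so fewer cells of a type and less RNA per cell cannot be told apart.

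The libraries were of unequal depth. The total count was 15925648, 9937632 and 6882449 in NCD samples 1, 2 and 3, and 8024664, 10479778 and 5171381 in HFD samples 1, 2 and 3. The deepest library (NCD sample 1) thus held 3.08 times the counts of the shallowest (HFD sample 3). A gene with 3 counts stood at 0.181 normalised CPM (counts per 1000000 counts of the scaled library) in the former and at 0.564 in the latter, and such limits cover counting error only. Of the 14188 genes tested, 25.0% had their highest normalised CPM in HFD sample 3. All 9 markers of arcuate neurons were detected, with Cartpt as the most abundant at a mean of 734 CPM. Kiss1, the gene for which the area was chosen, had 0 counts in NCD sample 1 and HFD sample 1, and a count of 0 there allowed up to 0.181 and 0.373 CPM. It stood at 2.75 and 4.81 CPM in NCD samples 2 and 3, and at 2.07 and 7.90 CPM in HFD samples 2 and 3. Avp, a hormone gene of the paraventricular and supraoptic nuclei, was also present at a mean of 2009 CPM. The 6 markers of those nuclei summed to 2959.5, 5907 and 2641 CPM in NCD samples 1 to 3. In HFD samples 1 to 3 they summed to 1431, 1497 and 1350 CPM, below every NCD sample. The part of such tissue in the values of the 9 genes was not tested.

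Growth hormone is released from the pituitary under the control of opposing hypothalamic peptides. Neurons of the ARC that make growth hormone-releasing hormone (GHRH) drive release, and somatostatin, made mainly by periventricular neurons that reach the median eminence and also by cells in the ARC, restrains it. Growth hormone acts back on hypothalamic neurons through its receptor, and somatostatin acts through a family of inhibitory G protein-coupled receptors. Insulin-like growth factors (IGFs) carry much of the action of growth hormone in the body, and IGF binding proteins hold them in the extracellular fluid and limit or prolong their action. In the adult brain, IGF2 is made largely by the meninges and the choroid plexus.

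Promoter sequence is shown for 3 of the genes, that of Ghrh for the letters of a TATA box. Those of Sst and Sstr2 are shown because the study asked about the activity of the transcription factor CREB1, which binds the cAMP response element. The letters of that element (TGACGTCA, the same on both strands) were searched in the 250 bases upstream of each RefSeq transcription start (GRCm38.p6). They were found at 508 of 32851 starts (1.55%) and at 2 of the 14 starts listed for 8 of the 9 genes. These were the starts of Sst and Sstr2, with the first base of the element 48 and 58 bases upstream. The shorter letters TGACG, which the element contains, were found at 17.8% of all starts and at 5 of these 14, in Ghrh, Igf2, Sst and Sstr2. The letters of a TATA box (TATAAA, both strands searched) were found at 12.4% of all starts and, among these genes, at one start each of Ghrh and Ghr. That of Ghrh lay 31 bases upstream of the start nearer to the coding exons. The Sst window lies at chr16:23890874-23890903 on the minus strand, within the first exon that GENCODE annotates from a more upstream start. The Sstr2 window lies at chr11:113619258-113619287 on the plus strand, and the Ghrh window at chr2:157337440-157337469 on the minus strand. Capitals mark the matched letters in 30 bases written 5′ to 3′ along the strand of the gene. A match is a description of these letters and not evidence of binding.
Sst: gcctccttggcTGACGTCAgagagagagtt
Sstr2: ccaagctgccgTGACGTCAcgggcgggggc
Ghrh: ggaaaatgaaggTATAAAagggaattacgg

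The 9 genes spanned a wide range of levels. On the scale of FPKM, which divides the read count by transcript length and depth, the mean over the 6 samples was highest for Sst (739 ± 176, SD, n = 6) and next for Ghrh (98.1 ± 36.2). Igf2 (24.9 ± 10.3), Igfbp5 (17.1 ± 5.85), Ghr (11.3 ± 2.31), Igfbp2 (7.17 ± 3.86) and Sstr2 (6.23 ± 1.21 FPKM) followed. Igf1 (1.88 ± 0.966) and Sstr1 (0.637 ± 0.231 FPKM) were lowest. The range of the 6 samples of Sst did not overlap that of Ghrh, nor did that of Ghrh overlap that of Igf2, nor that of Sstr2 that of Igf1. All other neighbours in this order overlapped. Sst exceeded Ghrh in FPKM in every sample, by 7.84, 9.85 and 7.42 times in NCD samples 1 to 3 and by 8.18, 7.72 and 5.84 times in HFD samples 1 to 3. The length behind an FPKM value was not the same in every sample for all genes. The ratio of CPM to FPKM implied a transcript of 2.16 to 5.98 kb for Igf1, depending on the sample, against 0.721 kb in every sample for Sst.

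**Figure D1:**
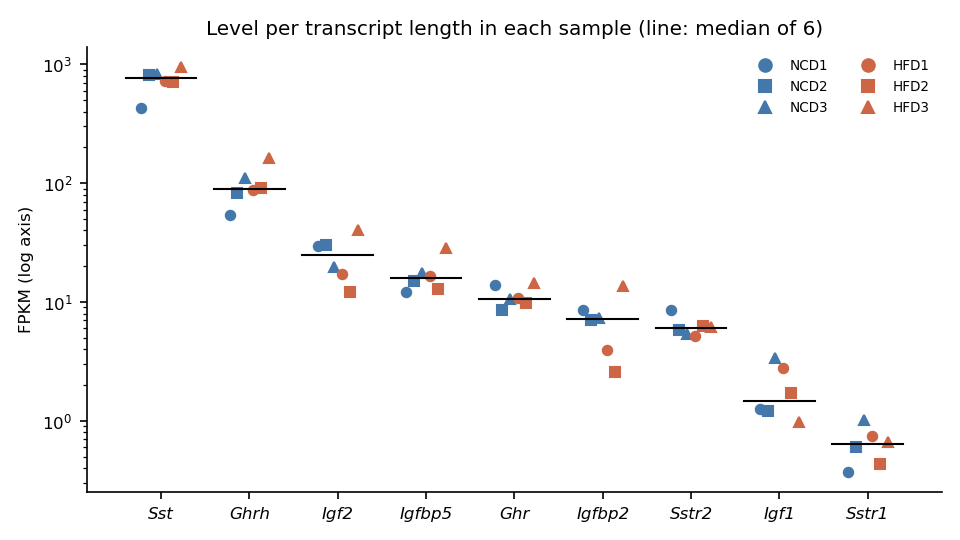
FPKM of the 9 genes in each of the 6 ARC samples on a log axis (circles, squares and triangles for samples 1, 2 and 3, blue for NCD and red for HFD), with a line at the median of the 6. Sst lies between 425 and 946 FPKM, above every value of Ghrh (54.3 to 162), and Sstr1 is lowest in the order by mean.

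None of the 9 genes passed a test of diet. All 9 passed the filter on low counts, and edgeR's quasi-likelihood test gave each an adjusted p of 0.999 (Benjamini-Hochberg over 14188 genes). The adjusted test called 8 genes in all (0.0564% of those tested) and 0 of the 9. At an unadjusted p under 0.05 with a change of over 1.5-fold, 270 genes (1.9%) passed in the whole table, 144 higher in HFD (1.01%) and 126 lower (0.888%), again with 0 of the 9. At an unadjusted p under 0.05 alone, the counts were 326 genes (2.3%) and 0 of the 9. Leaving out single samples moved these counts. The 8 genes called became 1 without NCD sample 2, HFD sample 1 or HFD sample 2, 4 without HFD sample 3 and 16 without NCD sample 3. The 270 became 982 of 14489 genes tested without NCD sample 3, with 1 of the 9 among them (Ghrh), and 606 without HFD sample 2, with 0. Without HFD sample 3 it became 245 of 14443 genes tested, with 2 of the 9 among them (Igf2 and Igfbp2). DESeq2 on counts and limma on log2 FPKM with all samples also found 0 of the 9 past the unadjusted threshold. With log2 total count as a further term in edgeR, 1 of the 9 passed it (Igf2, unadjusted p = 0.0419), beside 266 of 14188 genes. The groups overlapped for all 9 genes, whereas they did not overlap for 918 genes (6.47%) of the table, 3.24% higher and 3.24% lower in HFD. The estimate was above 0 for 4 of the 9 and below 0 for 5, with a median log2 fold change of −0.07 beside 0.00 over all genes tested. With 3 samples against 3, an exact two-sided permutation test of a single gene cannot go below p = 0.1.

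**Figure D2:**
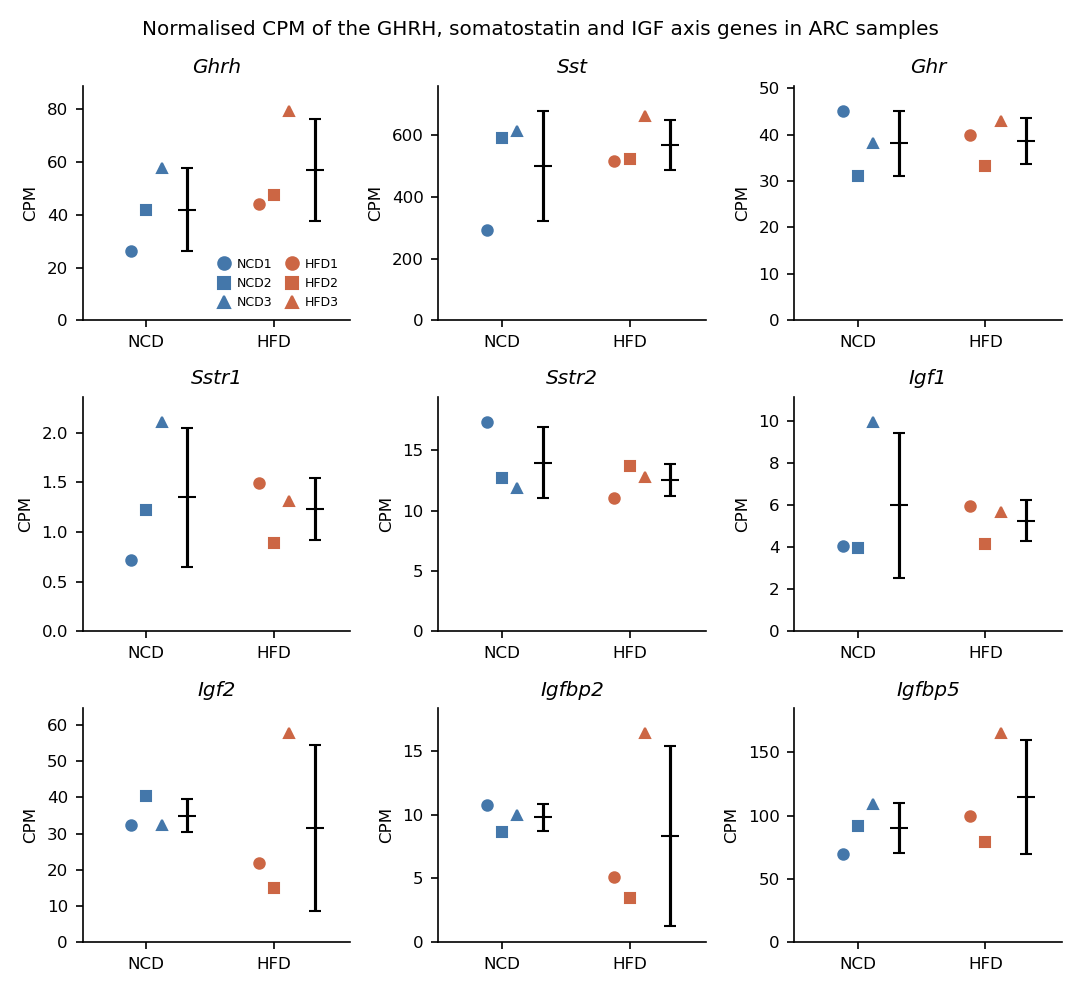
Normalised CPM of each of the 9 genes in the 3 NCD (blue) and 3 HFD (red) samples, with the group mean and SD as black bars beside the points and a vertical axis from 0 in each panel. The groups overlap in every panel, and HFD sample 3 is the highest point for Ghrh, Sst, Igf2, Igfbp2 and Igfbp5.

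Ghrh (chr2:157329497-157347506, minus strand), the gene of the releasing hormone, stood at 26.2, 41.9 and 57.8 normalised CPM in NCD samples 1 to 3 and at 44.2, 47.4 and 79.2 CPM in HFD samples 1 to 3. NCD sample 1 was lowest, HFD sample 3 highest, and NCD sample 3 lay above both other HFD samples. The group means were 42.0 ± 15.8 (SD, n = 3) and 57.0 ± 19.3 CPM. The log2 fold change of HFD over NCD was 0.44 (SE 0.30, 95% interval −0.21 to 1.10, edgeR unadjusted p = 0.167), and the exact permutation test gave p = 0.4. The estimate depended on single libraries. Without NCD sample 3 it was 0.74 (unadjusted p = 0.0227, adjusted p = 0.604, edgeR), and without HFD sample 3 it was 0.13 (unadjusted p = 0.676). Without both the deepest and the shallowest library, a setting chosen after seeing the data, it turned to −0.13 (unadjusted p = 0.569).

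Sst (chr16:23889573-23890958, minus strand), the gene of the inhibitory hormone, stood at 294, 592 and 615 CPM in NCD samples 1 to 3 and at 519, 525 and 663 CPM in HFD samples 1 to 3. The NCD samples held both the lowest value and the third and second highest, and the HFD samples lay closer together. The means were 500.1 ± 179 and 569 ± 81.9 CPM (n = 3 each). The estimated log2 fold change was 0.19 (SE 0.28, 95% interval −0.42 to 0.80, edgeR unadjusted p = 0.52, exact permutation p = 0.8). Without NCD sample 1, the low one, it was −0.10.

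Among the receptors, Ghr (chr15:3317760-3583492, minus strand), through which growth hormone acts on these cells, varied least. It stood at 45.0, 31.1 and 38.1 CPM in NCD samples 1 to 3 and at 39.9, 33.2 and 42.9 CPM in HFD samples 1 to 3. The means differed by less than the spread within either group (38.1 ± 6.94 and 38.7 ± 4.95 CPM). On the log2 scale, the fold change was 0.02 (SE 0.22, 95% interval −0.45 to 0.49, edgeR unadjusted p = 0.937, exact permutation p = 0.9). The highest sample held 1.45 times the CPM of the lowest, and 19.5% of all genes tested had a smaller ratio.

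Sstr2 (chr11:113619342-113626028, plus strand), a somatostatin receptor, stood at 17.3, 12.7 and 11.9 CPM in NCD samples 1 to 3 and at 11.1, 13.7 and 12.8 CPM in HFD samples 1 to 3. NCD sample 1 lay above the other 5. The log2 fold change was −0.17 (SE 0.26, 95% interval −0.72 to 0.39, edgeR unadjusted p = 0.529, exact permutation p = 0.7), and without NCD sample 1 it was 0.01. The gene lies within Slc39a11 on the opposite strand, with which it shares no exon base.

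Sstr1 (chr12:58211772-58214444, plus strand), another somatostatin receptor, was near the limit of these libraries. It had 12, 12 and 14 counts in NCD samples 1 to 3 and 12, 9 and 7 counts in HFD samples 1 to 3. In CPM these were 0.722, 1.22 and 2.11 in NCD and 1.49, 0.887 and 1.32 in HFD. In the fit, the log2 fold change was −0.07 with a 95% interval of −1.36 to 1.21 (SE 0.59, edgeR unadjusted p = 0.901, exact permutation p = 1). A change of 2.31-fold higher or to 0.391 of the NCD level lay within that interval.

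Of the growth factors, Igf1 (chr10:87858265-87937042, plus strand), the main mediator of growth hormone, had 67, 39 and 66 counts in NCD samples 1 to 3 and 48, 42 and 30 counts in HFD samples 1 to 3. In CPM it stood at 4.03, 3.97 and 9.93 in NCD and at 5.97, 4.14 and 5.64 in HFD. NCD sample 3 alone set the NCD mean of 5.98 ± 3.42 above the HFD mean of 5.25 ± 0.975 CPM. The log2 fold change was −0.16 (SE 0.42, 95% interval −1.07 to 0.74, edgeR unadjusted p = 0.702, exact permutation p = 1), and without NCD sample 3 it was 0.39. NCD sample 3 was also highest in FPKM (3.36), whereas HFD sample 3 was second to HFD sample 1 in CPM within its group and lowest of all 6 in FPKM (0.97), where its implied transcript was longest.

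Igf2 (chr7:142650766-142666816, minus strand), the imprinted growth factor gene, had HFD samples on both sides of the NCD samples. It stood at 32.3, 40.3 and 32.3 CPM in NCD samples 1 to 3 and at 22.0, 14.9 and 57.8 CPM in HFD samples 1 to 3. HFD samples 1 and 2 lay below every NCD sample and HFD sample 3 above every one. The means were 35.0 ± 4.62 and 31.5 ± 23.0 CPM, and the log2 fold change was −0.17 (SE 0.39, 95% interval −1.01 to 0.68, edgeR unadjusted p = 0.673, exact permutation p = 0.5). Without HFD sample 3 it was −0.93 (unadjusted p = 0.00463, adjusted p = 0.9999, edgeR), and without HFD sample 2 it was 0.18 (unadjusted p = 0.614). Igf2 shares 3596 exon bases on its own strand with the predicted gene Gm49394, which had 6 counts in HFD sample 1 and 0 in the others. It also shares 98 exon bases with the antisense gene Igf2os, and reads of those bases could not be told apart without strand. For the bases shared with Gm49394, strand would not tell the reads apart.

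The binding protein genes Igfbp2 (chr1:72824503-72852474, plus strand) and Igfbp5 (chr1:72857932-72874884, minus strand) are neighbours on chromosome 1, but their values across samples differed. Igfbp2 stood at 10.8, 8.65 and 9.93 CPM in NCD samples 1 to 3 and at 5.10, 3.45 and 16.4 CPM in HFD samples 1 to 3, the order of groups seen for Igf2. For HFD over NCD, the log2 fold change was −0.28 (SE 0.47, 95% interval −1.31 to 0.74, edgeR unadjusted p = 0.557, exact permutation p = 0.4). Without HFD sample 3 it was −1.20 (unadjusted p = 0.0051, adjusted p = 0.9999, edgeR), and without HFD sample 2 it was 0.10. Over the 6 samples, the log2 CPM of Igf2 and Igfbp2 correlated with r = 0.954, given as a description of 6 libraries in which HFD sample 3 is the highest for both and HFD sample 2 the lowest for both.

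Igfbp5, the more abundant of the pair, stood at 70.1, 92.1 and 109 CPM in NCD samples 1 to 3 and at 99.8, 79.4 and 165 CPM in HFD samples 1 to 3. HFD sample 3 again lay above the rest, and the other 5 samples were mixed. The means were 90.4 ± 19.6 and 115 ± 44.7 CPM, and the log2 fold change was 0.34 (SE 0.27, 95% interval −0.25 to 0.94, edgeR unadjusted p = 0.235, exact permutation p = 0.5). Without HFD sample 3 it was −0.01.

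Markers of leptomeningeal fibroblasts, the cells of the inner meninges, were set beside Igf2 and Igfbp2. The order looked for, HFD sample 3 highest and HFD sample 2 lowest, was taken from Igf2 and Igfbp2 themselves. The 10 markers were all tested, 0 had an unadjusted p under 0.05 in edgeR and none was at 0, with 7 estimates above 0, 3 below and a median log2 fold change of 0.04. Their summed level was 997, 878 and 743 CPM in NCD samples 1 to 3 and 527, 390 and 1929 CPM in HFD samples 1 to 3. HFD sample 3 was thus highest and HFD sample 2 lowest, as for Igf2 and Igfbp2. Ptgds, a prostaglandin synthase and the most abundant of the list, made up most of the sum with a mean of 816 CPM. Without it, the other 9 markers summed to 97.1, 82.9 and 79.3 CPM in NCD and to 69.4, 52.1 and 187 CPM in HFD. Of the 10 markers, 9 were highest in HFD sample 3 and 6 of these were lowest in HFD sample 2. The others did not follow this order, and Dcn was lowest in NCD sample 2, at 23.9 CPM. Among all genes tested, 6.30% were both highest in HFD sample 3 and lowest in HFD sample 2. The same order was found for 2 of 3 tested pituitary markers, 2 of 9 arcuate neuron markers and 1 of 6 tested choroid plexus markers. The summed level of the choroid plexus list was 55.8, 46.3 and 46.5 CPM in NCD and of 48.7, 39.4 and 36.9 CPM in HFD. The part of these cells in the values of Igf2 and Igfbp2 was not tested.

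**Figure D3:**
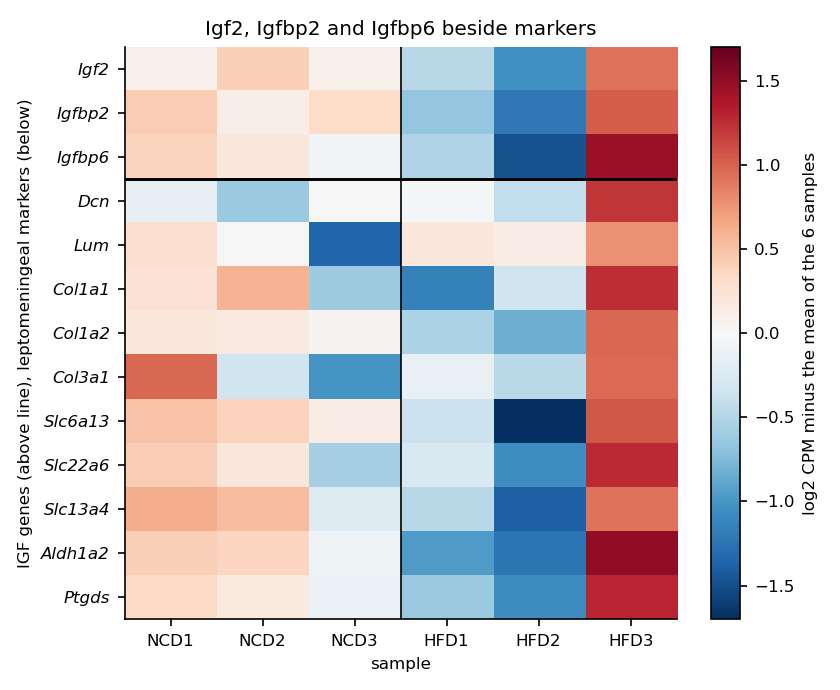
Log2 CPM of Igf2, Igfbp2 and Igfbp6 (above the line) and of 10 leptomeningeal markers (below it) in each sample, minus the mean of the 6 samples of that gene (blue lower, red higher). HFD sample 3 is the highest sample of Igf2 and Igfbp2 and of 9 of the 10 markers, and HFD sample 2 is the lowest of Igf2 and Igfbp2 and of 6 markers.

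The level of Ghrh, Sst and Igfbp5 moved with the depth of the library. Ghrh had 435, 412 and 384 counts in NCD samples 1 to 3 and 356, 481 and 421 counts in HFD samples 1 to 3, so that its highest count was 1.35 times its lowest while the totals differed 3.08-fold. Of the 11898 genes averaging 50 counts or more, 1.43% had a smaller ratio. The same ratio was 1.65 for Sst and 1.61 for Igfbp5, beside a median of 3.44 over those genes. In CPM, the relation to the total count was therefore inverse. Pearson's r of log2 CPM with log2 total count over the 6 samples was −0.96 for Ghrh (exact permutation p = 0.00833, Spearman's rho −0.829, p = 0.0583). It was −0.87 for Sst (exact permutation p = 0.0125, rho −0.829, p = 0.0583) and −0.95 for Igfbp5 (exact permutation p = 0.00556, rho −1, p = 0.00278). These p-values are two-sided and unadjusted, from 9 relations computed, one for each gene. With Benjamini-Hochberg adjustment over the 9, the exact permutation p of r was 0.0375 for each of the 3. That of rho was 0.131 for Ghrh and Sst and 0.025 for Igfbp5.

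For the other 6 genes the exact permutation p of r was 0.0833 or more. Spearman's rho of Sstr1 was −0.829 (p = 0.0583), the same as for Ghrh and Sst. Across all genes tested, 2.53% had a lower r than Ghrh, 10.7% a lower r than Sst and 3.32% a lower r than Igfbp5. Without the 2 libraries farthest from the median depth (NCD sample 1 and HFD sample 3), r was −0.70 for Ghrh, −0.41 for Sst and −0.94 for Igfbp5, so the relation of Sst rested largely on those libraries. Over the same 4 libraries r was −0.96 for Sstr1, −0.97 for Igf1, −0.82 for Ghr, −0.56 for Igfbp2, −0.32 for Igf2 and 0.77 for Sstr2. Over all 6 libraries these were −0.75, −0.64, −0.06, −0.33, −0.42 and 0.74. With 3 samples a group, no separate correlation was computed for each diet. With log2 total count as a further term in the edgeR fit, which takes the relation to depth within the diets, the diet estimate was 0.09 for Ghrh (unadjusted p = 0.619), −0.05 for Sst (unadjusted p = 0.799) and −0.03 for Igfbp5 (unadjusted p = 0.849). In that fit Igf2 stood at −0.75 (edgeR unadjusted p = 0.0419, adjusted p = 0.9998) and Igfbp2 at −0.87 (unadjusted p = 0.0851). The part of depth in the values of these genes was not tested beyond this.

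**Figure D4:**
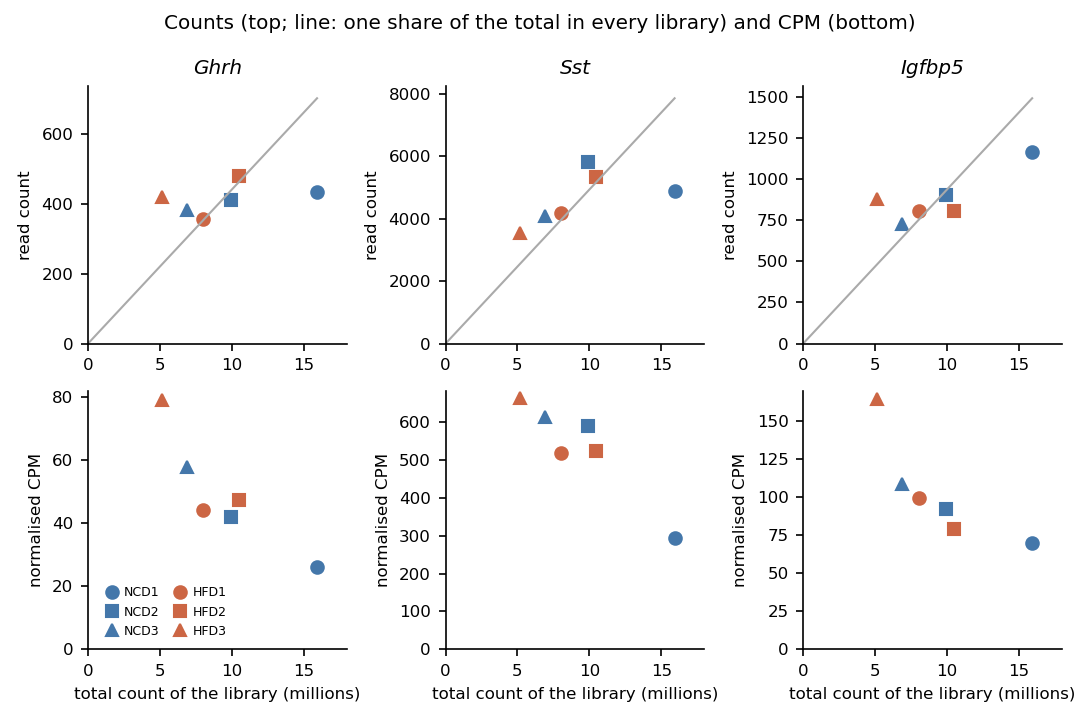
Read count (top) and normalised CPM (bottom) of Ghrh, Sst and Igfbp5 against the total count of each library, with a grey line at one common share of the total. The counts of Ghrh stay between 356 and 481 from the shallowest to the deepest library, and its CPM falls from 79.2 in HFD sample 3 to 26.2 in NCD sample 1.

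Of 40 further genes of the pathway, all were in the table and 30 passed the filter on low counts. The estimate was above 0 for 20 and below 0 for 10, with a median log2 fold change of 0.08, and 2 genes passed the unadjusted threshold, Gal in the direction of HFD and Sstr4 in that of NCD, beside 1.9% of all genes tested. The count was 0 without NCD sample 1, 1 without NCD sample 2 or HFD sample 1, and 5 without NCD sample 3, where 982 of 14489 genes passed in the whole table. None passed with adjustment over all genes. For the 14 of them that were also followed through the alternative fits, no adjusted p there was under 0.604. The remaining 28 tested genes had log2 fold changes between −0.60 and 1.19. The groups did not overlap for 2 of the 30, Gal and the receptor gene Sstr5, beside 6.47% of all genes.

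Gal, the gene of galanin, a neuropeptide that many GHRH neurons and other hypothalamic neurons make, stood at 143, 214 and 225 CPM in NCD samples 1 to 3 and at 341, 299 and 307 CPM in HFD samples 1 to 3. The lowest HFD value exceeded the highest NCD value. The means were 194 ± 44.6 and 316 ± 22.8 CPM, and the log2 fold change was 0.70 (SE 0.23, 95% interval 0.21 to 1.19, edgeR unadjusted p = 0.00899, adjusted p = 0.999). The unadjusted p stayed under 0.05 in all 16 alternative fits. Without NCD sample 1 the log2 fold change was 0.51 (unadjusted p = 0.0263), with log2 total count as a further term it was 0.58 (unadjusted p = 0.00453), and without both the deepest and the shallowest library it was 0.53 (unadjusted p = 0.0167), each under 1.5-fold. The other genes listed for GHRH neurons did not pass the test. Among them Gsx1, a factor that GHRH neurons need to form, stood at 5.28 ± 1.80 and 5.55 ± 2.77 CPM.

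Sstr4, a further somatostatin receptor, had 71, 28 and 9 counts in NCD samples 1 to 3 and 5, 12 and 9 counts in HFD samples 1 to 3. In CPM these were 4.27, 2.85 and 1.35 in NCD and 0.621, 1.18 and 1.69 in HFD, so HFD sample 3 lay above NCD sample 3. The log2 fold change was −1.35 (SE 0.56, 95% interval −2.58 to −0.12, edgeR unadjusted p = 0.0334, adjusted p = 0.999). The unadjusted p was over 0.05 without NCD sample 1 (−0.92, unadjusted p = 0.193), without NCD sample 2 (−1.35, unadjusted p = 0.0726), without HFD sample 1 (−1.04, unadjusted p = 0.138) and without HFD sample 2 (−1.39, unadjusted p = 0.067). It was also over 0.05 with log2 total count as a further term (−1.005, unadjusted p = 0.13) and without both the deepest and the shallowest library (−1.22, unadjusted p = 0.0939). Of the other somatostatin receptors, Sstr3 stood at 9.04 ± 2.98 and 8.67 ± 2.19 CPM and Sstr5 at 4.30 ± 0.801 and 6.03 ± 0.877 CPM in NCD and HFD. Sstr5 had a log2 fold change of 0.47 (SE 0.34, 95% interval −0.27 to 1.20, edgeR unadjusted p = 0.191).

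The receptor of GHRH itself was at the limit of detection in this tissue, with 1 count of Ghrhr in NCD sample 3 and 0 in the others. Ghsr, the ghrelin receptor, through which ghrelin drives growth hormone release, stood at 5.70 ± 2.78 and 4.84 ± 2.05 CPM in NCD and HFD. Gh, the gene of growth hormone, and Cort, that of the related peptide cortistatin, had 0 counts in every sample, which allowed up to 0.181 CPM in the deepest and 0.564 CPM in the shallowest library. Prl, the pituitary hormone prolactin, was at 0 as well.

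Receptors of the IGFs and of insulin were present in every sample. Igf1r, which binds both IGFs, stood at 46.9 ± 13.4 and 62.2 ± 19.9 CPM in NCD and HFD (log2 fold change 0.41, SE 0.28, edgeR unadjusted p = 0.165). Its log2 fold change lay between 0.13 and 0.60 with single samples left out. With log2 total count as a further term it was 0.05 (edgeR unadjusted p = 0.77). Insr, the insulin receptor, stood at 30.8 ± 8.73 and 43.0 ± 10.4 CPM (0.48, SE 0.26, edgeR unadjusted p = 0.0889). Without NCD sample 3 its log2 fold change was 0.64 (edgeR unadjusted p = 0.0378, adjusted p = 0.608), and without NCD sample 1 it was 0.25 (unadjusted p = 0.312). It was 0.2 with log2 total count as a further term (edgeR unadjusted p = 0.283). Without both the deepest and the shallowest library it was 0.04 (edgeR unadjusted p = 0.851). Igf2r, which removes IGF2 into the cell, stood at 32.2 ± 3.38 and 28.0 ± 4.41 CPM (−0.21, SE 0.21, edgeR unadjusted p = 0.347). All 3 had overlapping groups. Socs2, a feedback inhibitor of growth hormone signalling that the receptor induces, stood at 14.5 ± 5.27 and 19.6 ± 5.71 CPM (0.44, SE 0.31, edgeR unadjusted p = 0.187). Without NCD sample 3 its log2 fold change was 0.73 (edgeR unadjusted p = 0.0348, adjusted p = 0.608), and without NCD sample 1 it was 0.18. It was 0.078 with log2 total count as a further term (edgeR unadjusted p = 0.73). Without both the deepest and the shallowest library it was −0.028.

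Of the 7 other binding protein genes listed, 4 were tested and 0 passed at an unadjusted p under 0.05 in edgeR. Igfbp7 was the most abundant of them at a mean of 22.6 CPM, and Igfbp3, Igfbp4 and Igfbp7 had log2 fold changes of 0.07, 0.33 and 0.15. Igfbp6 stood at 6.44, 5.70 and 4.81 CPM in NCD samples 1 to 3 and at 3.48, 1.77 and 13.7 CPM in HFD samples 1 to 3. This was the order of Igf2 and Igfbp2, with HFD samples 1 and 2 below and HFD sample 3 above every NCD sample. Its log2 fold change was 0.09 (SE 0.58, edgeR unadjusted p = 0.874) with all samples and −1.13 without HFD sample 3 (unadjusted p = 0.0255, adjusted p = 0.9999).

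**Figure D5:**
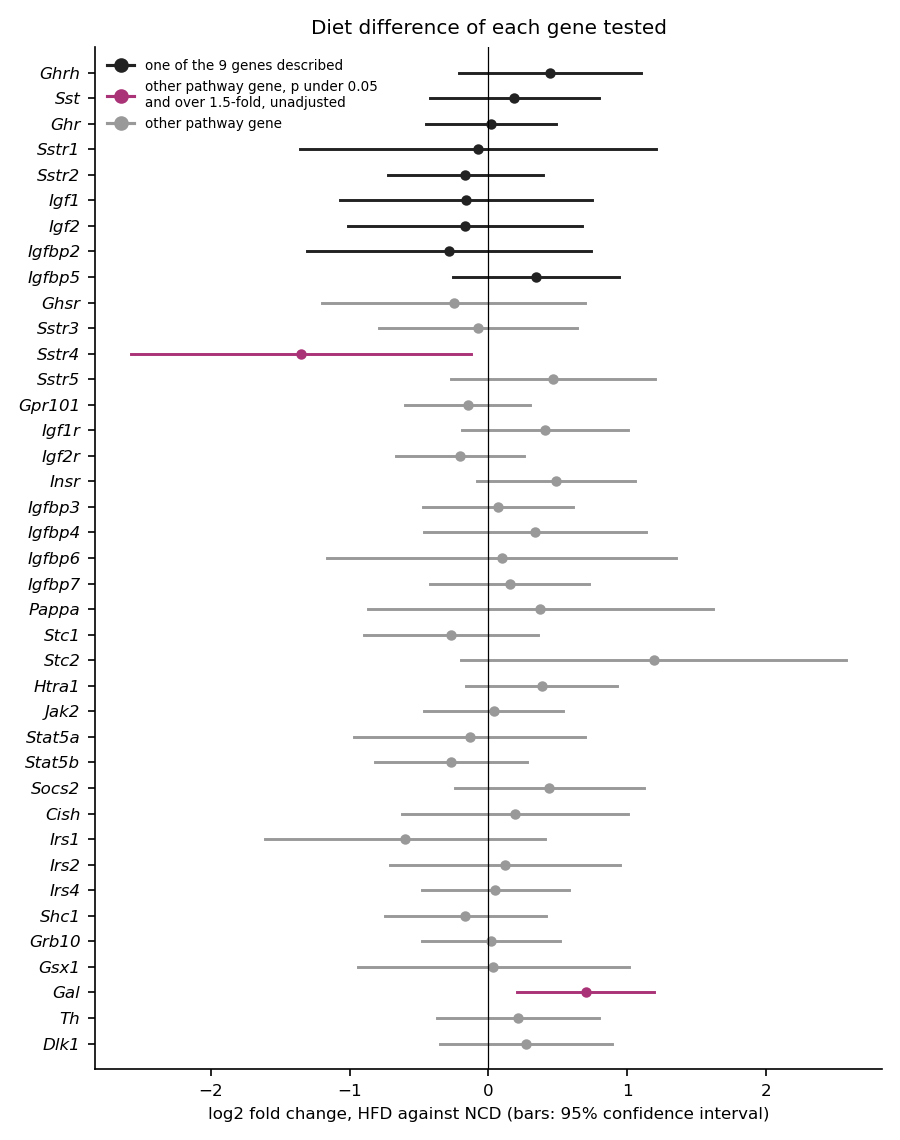
Log2 fold change of HFD over NCD (points) with its 95% confidence interval (bars) for the 9 genes (black) and the 30 tested pathway genes (grey, or purple where p was under 0.05 with a change of over 1.5-fold, unadjusted). The intervals of all 9 genes cross 0, and those of Sstr4 (−2.58 to −0.12) and Gal (0.21 to 1.19) do not.

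The genes most like each of the 9 across the 6 samples were ranked by Pearson's r of log2 CPM among the genes averaging 50 counts or more, as a description of 6 libraries that share their depth differences. For Ghrh these were Ap4m1 (r = 0.996), Cacna1g (0.995) and Pbx3 (0.994), and 181 genes had r over 0.95. For Sst they were Phlpp1 (0.996), Tigd2 (0.995) and Tmem38b (0.994), with 147 genes over 0.95. For Igfbp5 they were Lpin1 (0.995), Resf1 (0.995) and Ptpre (0.994), with 199 genes. No other of the 9 genes had more than 62 genes over that r. Ghr was nearest to Rasa1 (0.986), Taf1 (0.982) and Ankrd54 (0.978), and 26 genes exceeded 0.95. For each of the 9, the genes named are the top of 11897 or 11898 comparisons over 6 samples. No background count of genes over 0.95 was computed, so no link between the genes named is shown.

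Fewer genes had r over 0.95 with the growth factors than with Ghrh, Sst or Igfbp5. Igf2 was nearest to Usp36 (0.987), Zc3h8 (0.978) and Gm7173 (0.976), with 17 genes over 0.95, and Igfbp2 to Csgalnact1 (0.992), Klhl33 (0.982) and Iqgap1 (0.980), with 30. Igf1 was nearest to Nr3c1 (0.985), the glucocorticoid receptor gene, and then to Fut9 (0.976) and Pld5 (0.975), with 18 genes over 0.95. Sstr2 was nearest to Prps2 (0.993), Pcsk7 (0.991) and Pigg (0.988), with 62 genes. Sstr1 was nearest to Tulp4 (0.991), Lynx1 (0.988) and Amot (0.984), with 36 genes, and its 7 to 14 counts make its own order uncertain.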

How the data were processed

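RNA-seq was done on ARC tissue of 3 NCD and 3 HFD samples, with poly(A) RNA enriched on oligo(dT) beads. The authors compared cleaned reads with a ribosomal database (bowtie2), aligned them (HISAT2) and deposited read counts and FPKM values per gene from StringTie and RSEM; the submitters' processing notes name mm10. Tool versions, annotation release and strand setting are not given in the sources used here. Columns of the authors' fold change, p-value and FDR were not used. The columns titled C were taken as NCD, since their means equalled the NCD mean column for all 22322 genes (within 0.0011 FPKM). Symbols and positions came from GENCODE M21 (GRCm38), which matched 22267 identifiers.

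Counts were filtered (filterByExpr), normalised (TMM) and fitted with diet as the only term in edgeR 4.0.16 (quasi-likelihood test, R 4.3.3), with Benjamini-Hochberg adjustment over 14188 genes. The threshold of p under 0.05 and over 1.5-fold is that of the study's methods. CPM values are counts per 1000000 of the TMM-scaled library. The exact permutation tests compared mean log2 CPM. Alternatives used DESeq2 1.42.0, limma 3.58.1 on log2 FPKM with a pseudocount of 1 or 0.1, other normalisations and filters, the total count as a covariate, a replicate block and each sample left out. The edgeR script was tested on simulated data. The 9 genes, the pathway list and the marker lists were chosen with earlier results of these data known. Named were the 9 genes, 16 of the pathway list whatever their values, any other with p under 0.05, the most abundant marker of each list and markers at 0, overlapping neighbours, and for each of the 9 the 3 genes with the highest r. Implied lengths, Kiss1 and the fit without the deepest and the shallowest library were chosen after the values were seen. The result of 1 marker list is not reported here.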

Additional observations from a re-analysis of the deposited data

How the results depend on the processing

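The diet estimates of the 9 genes are limited by 3 samples a group, by a 3.08-fold range of depth and, for Sstr1, by 7 to 14 counts a sample. In 142 alternative fits of the 9 genes the sign held in 125 and turned in 17, no adjusted p was under 0.604, and the median log2 fold change of all genes lay between −0.013 and 0.010. The cause was not tested for any change of sign or count.

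The number of genes called at an adjusted p under 0.05 was 8. It was 17 with a replicate block, 19 with DESeq2, 15 with every gene of at least 1 count, 5 with limma at either pseudocount and 15 with log2 total count as covariate, and between 1 and 16 with single samples left out. The number past p under 0.05 and 1.5-fold was 270. It was 427 with at least 1 count, 179 with a mean of at least 50 counts, and between 195 (without HFD replicate 1) and 982 (without NCD replicate 3). Of the 9 genes, 0 passed that threshold. With log2 total count as covariate 1 passed (Igf2, beside 266 of 14188 genes in all). With the deepest and the shallowest library left out, an alternative chosen after seeing the data, 2 passed (Igf2 at −0.995, edgeR unadjusted p = 0.00165, and Igfbp2 at −1.13, unadjusted p = 0.00993), beside 329 of 14197 genes in all, and with single samples left out between 0 and 2. Of the pathway genes, 2 passed. With a mean of at least 50 counts 1 passed, and with the covariate 0, as with the deepest and shallowest library left out. With single samples left out between 0 and 5 passed.

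With the deepest and the shallowest library left out, the sign turned for Ghrh (−0.13), Sst (−0.22), Igfbp5 (−0.18), Ghsr (0.36), Igf1r (−0.094), Igfbp3 (−0.093), Igfbp4 (−0.37), Igfbp6 (−1.03), Igfbp7 (−0.22) and Socs2 (−0.028). With log2 total count as covariate it turned for Sst (−0.051), Igfbp5 (−0.033), Ghsr (0.031), Igfbp4 (−0.17), Igfbp6 (−0.68), Igfbp7 (−0.030) and Gsx1 (−0.032). With limma, Igfbp6 was at −0.21 (pseudocount 1) and −0.33 (0.1), and Gsx1 at −0.031 (0.1).

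With single samples left out, the estimate ranged from −0.10 to 0.36 for Sst, −0.11 to 0.15 for Ghr, −0.43 to 0.36 for Sstr1, −0.26 to 0.012 for Sstr2, −0.40 to 0.39 for Igf1, −0.93 to 0.18 for Igf2, −1.20 to 0.10 for Igfbp2 and −0.014 to 0.55 for Igfbp5. It ranged from −0.66 to 0.22 for Ghsr, −0.29 to 0.18 for Sstr3, −0.075 to 0.21 for Igfbp3, −0.16 to 0.67 for Igfbp4, −1.13 to 0.56 for Igfbp6, −0.052 to 0.41 for Igfbp7 and −0.24 to 0.42 for Gsx1. It stayed above 0 for Ghrh (0.13 to 0.74), Igf1r (0.13 to 0.60), Insr (0.25 to 0.64), Socs2 (0.18 to 0.73), Sstr5 (0.35 to 0.59) and Gal (0.51 to 0.82). It stayed below 0 for Sstr4 (−1.65 to −0.92) and Igf2r (−0.34 to −0.12).

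The samples share replicate numbers across diets, but the deviations of same-numbered samples correlated by −0.01, 0.11 and 0.37 for numbers 1, 2 and 3, and only those numbered 3 correlated best with each other, so the numbers were not taken to pair them. In the fit with the replicate block, Ghrh was at 0.46 (edgeR unadjusted p = 0.0325, adjusted p = 0.995), Insr at 0.50 (unadjusted p = 0.0322, adjusted p = 0.995), Igfbp6 at −0.33 and Gsx1 at −0.028, and 376 genes passed the unadjusted threshold.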

Other observations

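Other marker lists gave the following counts past p under 0.05 and 1.5-fold in edgeR, unadjusted, with 1.01% of all genes passing higher in HFD and 0.888% lower. Of 8 tanycyte markers, 2 passed, both higher in HFD. The estimate was above 0 for all 8 and the median log2 fold change was 0.45. Their summed level was 193, 122 and 207 CPM in NCD samples 1 to 3 and 264, 151 and 370 CPM in HFD samples 1 to 3, with Gpr50 as the most abundant. Of 9 arcuate neuron markers, 7 had an estimate above 0 and 2 below, and 2 passed, both higher in HFD, among them the most abundant, Cartpt (log2 fold change 0.75, SE 0.25, edgeR unadjusted p = 0.0116, adjusted p = 0.999). Of 6 markers of paraventricular and supraoptic neurons, 2 passed, both lower in HFD, with Avp as the most abundant (−1.71, SE 0.33, edgeR unadjusted p = 0.000192, adjusted p = 0.194). The groups did not overlap for 4 of the 6, beside 6.47% of all genes tested. The estimate was below 0 for 4 of the 6 and above 0 for 2, one of which, Trh, named after its value was seen, had an unadjusted p under 0.05 with a change of under 1.5-fold (0.51, SE 0.22, edgeR unadjusted p = 0.0374, adjusted p = 0.999).

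Of 7 pituitary markers, 3 were tested and 1 passed, higher in HFD, while Gh and Prl had 0 counts in every sample. Their summed level was 12.6, 5.39 and 20.2 CPM in NCD samples 1 to 3 and 17.8, 11.7 and 60.0 CPM in HFD samples 1 to 3, most of it Cga, a glycoprotein hormone subunit that the pars tuberalis beside the median eminence also makes, at a mean of 17.0 CPM. HFD sample 3 was highest in all 3 tested pituitary markers.

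Of 8 astrocyte markers (Slc1a2 the most abundant) and of 8 endothelial markers (Flt1), 1 each passed higher in HFD. The estimate was above 0 for 2 astrocyte markers and below 0 for 6, and for endothelial markers above 0 for 4 and below for 4. Cldn5, an endothelial marker named after its value was seen, was lower in HFD with a change of under 1.5-fold (−0.48, SE 0.21, edgeR unadjusted p = 0.0406, adjusted p = 0.999). Ly6c1, the endothelial marker that passed, likewise named after its value was seen, went the other way (0.81, SE 0.23, edgeR unadjusted p = 0.00433, adjusted p = 0.999). Of 8 oligodendrocyte markers (Mbp) 1 passed lower, and of 8 markers of pericytes and smooth muscle (Rgs5) 2 passed lower. None passed among 8 neuron markers (Snap25), 5 markers of the ventromedial nucleus (Slc17a6), 2 of the lateral hypothalamus (Pmch), 6 tested markers of choroid plexus (Clic6) and 4 tested markers of cortex and hippocampus (Pvalb), each with 0 at p under 0.05 in edgeR. Counts by the other tools were not taken for these lists.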
